A study of Pyrus syriaca and Pyrus pyrifolia and Pyrus communis with 12 samples.

Results

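The stigma exudate and the stigma of the wild pear P. syriaca were compared here across 3 natural populations, Golan, Manara and SASA. Each population gave 1 exudate library and 1 stigma library, so the comparison rests on 6 of the 12 libraries of the series, chosen by species and tissue label and paired by population. All 6 came from flowers at 12 hours after anthesis (HAA) on branches kept overnight in a growth room, with altitudes of 900 m for the Golan, 450 m for the Manara and 830 m for the SASA trees. The remaining 6 libraries, from the cultivated pears Hosui and Shinsui (P. pyrifolia) and Spadona (P. communis), serve only as a contrast. Per the study's methods, exudates were rinsed off the stigmas of pooled flowers with water after the anthers had been removed and were then centrifuged. Per the labels, stigma lobes were excised from several flowers, so the libraries of both tissues are pools. Each population had a single library per tissue, so every spread given here is one between populations.

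Plant microRNAs (miRs) are short RNAs that are cut from a hairpin precursor, loaded into an ARGONAUTE protein and guided by base pairing to transcripts, which are then cleaved or translated less. Many families are shared by flowering plants, with targets that are conserved: miR164 pairs with transcripts of NAC transcription factors, miR169 with those of NF-YA subunits, and the miR482 and miR2118 superfamily with those of NBS-LRR resistance genes. The stigma exudate is the fluid film on the receptive surface, where pollen grains and microbes land.

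The table lists 355 mature miRs of strawberry (fve), apple (mdm) and peach (ppe), to which reads of the pear libraries were assigned. Of these, 111 had at least 1 read in the 6 P. syriaca libraries, 45 of them in exudate and 104 in stigma. The miRs that carried the comparison are printed 5′ to 3′ as the table gives them, with the seed (bases 2 to 8) in capitals, because near relatives differ by few bases and reads may have been assigned to more than 1 of them.
mdm-miR482d: aAUGGAAGgguaggaaagaag
mdm-miR482a-3p: uUCCCAAGcccgcccauuccua
ppe-miR482c-3p: uUCCCAAGcccgcccauuccaa
mdm-miR2118a: cUACCGAUgccacuaaguccca
mdm-miR164b: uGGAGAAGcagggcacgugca
mdm-miR169a: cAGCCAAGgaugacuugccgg
mdm-miR1511: aCCUAGCUcugauaccaugaa
fve-miR1511: aCCUAGCUcugauaccaugug
mdm-miR159d: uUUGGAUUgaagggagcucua
mdm-miR159a: cUUGGAUUgaagggagcucc
mdm-miR396b: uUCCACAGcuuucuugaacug
mdm-miR396c: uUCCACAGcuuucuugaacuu
fve-miR156a: uUGACAGAagagagugagcac
mdm-miR156a: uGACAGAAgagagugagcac
mdm-miR408b: aCAGGGAAgagguagagcaug

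Both miR1511 entries share a seed, as do mdm-miR482a-3p and ppe-miR482c-3p, mdm-miR159d and mdm-miR159a, and mdm-miR396b and mdm-miR396c. The seed of mdm-miR482d was found in no other miR with a read. Its sequence was instead complementary to mdm-miR482b and mdm-miR482c at 15 of 19 overlapping bases, so it is a near complement of them, and it stands with the NBS-LRR regulators here by its family number alone. The mdm-miR482b and mdm-miR482c entries had 2 stigma reads each and 0 exudate reads. The table gives a precursor position for part of the miRs, in genomes of the 3 reference species whose build the table does not name. It places the precursor of mdm-miR169a on the minus strand of apple contig MDC044115.7 from 12507 to 12664 and that of fve-miR1511 on the minus strand of strawberry LG5 from 1343325 to 1343441, and it gives none for mdm-miR482d or mdm-miR164b.

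Exudates yielded far fewer miR reads than stigmas. The exudate libraries held 50 (Golan), 176 (Manara) and 27 (SASA) miR reads, and the stigma libraries 1657, 1777 and 794 in the same order. The stigma thus held 33.1 times as many miR reads as the exudate in Golan, 10.1 times in Manara and 29.4 times in SASA. The groups did not overlap, and on the log2 scale exudate over stigma averaged -4.42 ± 0.944 (SD, n = 3 populations; p = 0.25 by exact two-sided sign flips, a permutation test that cannot go lower with 3 pairs). The ratio in the 3 cultivated genotypes was -2.59 ± 1.099, and its difference from the wild ratio did not pass an exact permutation test (p = 0.2, with 0.1 as the smallest possible). The amounts of RNA that entered the libraries are not given in the sources used here, so a total of miR reads is not a concentration. In the pooled stigmas, fewer cells that make a miR and less of it per cell cannot be told apart. The exudates were centrifuged rinses, so this question concerns the stigmas only.

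These depths set what a count of 0 can show. With 3 reads as the limit, a miR without a read could still hold up to 6% of the Golan exudate, 1.70% of the Manara exudate and 11.1% of the SASA exudate, against 0.181%, 0.169% and 0.378% of the stigmas. Over the 253 pooled exudate reads the limit was 1.19%, and over the 4228 pooled stigma reads 0.0710%. Reads are not independent molecules, so these limits and the 95% Wilson intervals used below cover counting error only. No sequencing batch is given in the labels, and the table holds no gene that could mark the tissue of a library. The only pollen family on the lists, miR845, had 1 entry in the table and no read in any of the 6 libraries.

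A single miR dominated each tissue. In all 3 exudates the most abundant miR was mdm-miR482d, and in all 3 stigmas it was mdm-miR164b. The mdm-miR482d entry took 13 of 50 reads or 26.0% (95% interval 15.9 to 39.6) of the Golan exudate, 87 of 176 or 49.4% (42.1 to 56.8) of the Manara exudate and 16 of 27 or 59.3% (40.7 to 75.5) of the SASA exudate. In the stigmas it took 109, 221 and 69 reads, which were 6.58%, 12.4% and 8.69%. Every exudate lay above every stigma, the intervals of the tissues did not overlap in any population, and the mean share was 44.9% ± 17.1 in exudate and 9.24% ± 2.97 in stigma (SD, n = 3). The difference of 35.7 ± 15.6 percentage points reached the lowest p open to 3 against 3 libraries (p = 0.1, exact two-sided permutation). That test leaves out the pairing by population. Exact sign flips over the 3 pairs gave p = 0.25, the lowest open to them. Of the 111 miRs with a read, mdm-miR482d was the only one (0.901%) whose exudate shares all lay above its stigma shares.

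The opposite held for mdm-miR164b, whose family targets NAC genes that act in organ boundaries and senescence in Arabidopsis. It had 900 of 1657 reads (54.3%) in the Golan stigma, 610 of 1777 (34.3%) in Manara and 222 of 794 (27.96%) in SASA. In the exudates it had 8 reads (16.0%), 29 reads (16.5%) and 0 reads in the same order. All exudates lay below all stigmas, with means of 10.8% ± 9.38 and 38.9% ± 13.8 (SD, n = 3; exact permutation p = 0.1, paired sign flips p = 0.25). The absence of a read from the SASA exudate was beyond what its depth allows, since its stigma share of 27.96% stood above the limit of 11.1% and would have given 7.55 reads. Shares all lower in exudate were found for 18 of the 111 miRs (16.2%), of which 13 had no exudate read at all, and 11 of those 13 were so rare in stigma that 0 exudate reads could not separate the tissues.

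**Figure D1:**
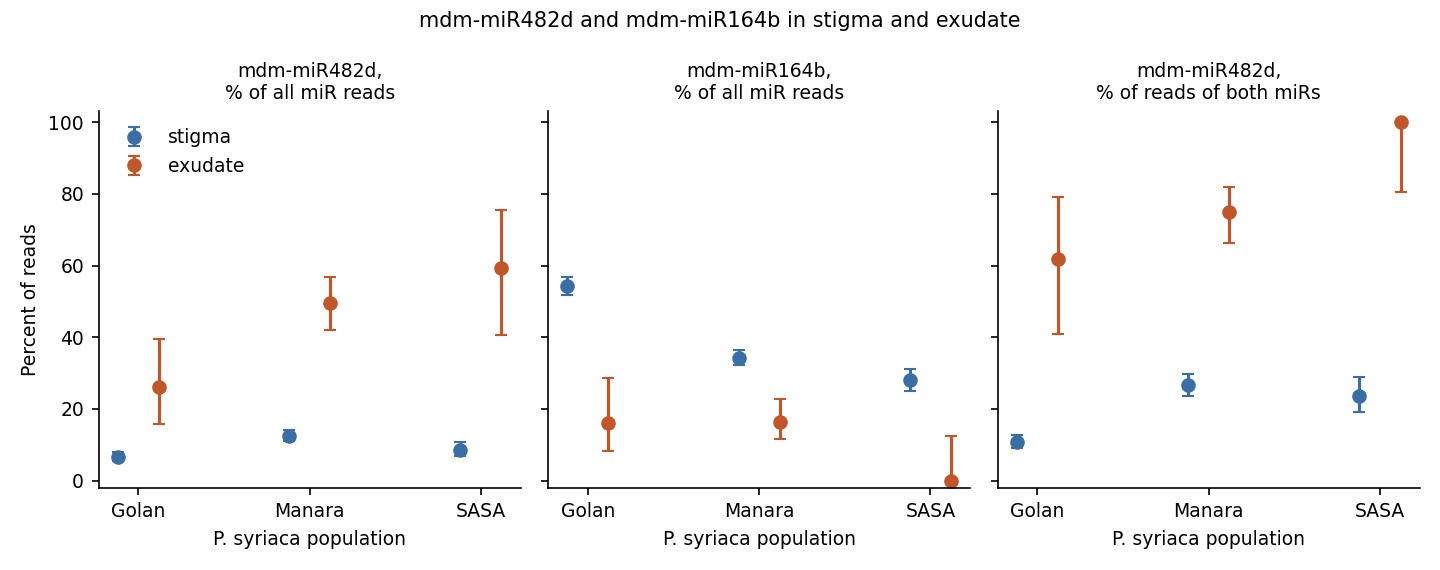
Share of miR reads (percent) held by mdm-miR482d (left) and mdm-miR164b (middle), and the percent that mdm-miR482d made of the reads of both (right), in stigma (blue) and exudate (orange) of each P. syriaca population, with 95% Wilson intervals. As shares of library totals, mdm-miR482d was higher in every exudate and mdm-miR164b lower, whereas DESeq2's scaling gave mdm-miR482d a log2 fold change of -0.35.

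Because a large share of 1 miR lowers the shares of all others, both were also set against each other, which needs no scaling between libraries. This ratio was chosen after the values had been seen. Of the reads of mdm-miR482d and mdm-miR164b together, mdm-miR482d made 13 of 21 (61.9%) in the Golan exudate, 87 of 116 (75.0%) in Manara and 16 of 16 (100%) in SASA. In the stigmas it made 109 of 1009 (10.8%), 221 of 831 (26.6%) and 69 of 291 (23.7%). The share was higher in exudate in 3 of 3 populations, by 58.6 ± 15.4 percentage points (SD, n = 3), with 95% intervals of the tissues apart in each population. As mdm-miR482d was higher and mdm-miR164b lower in every exudate, this direction was fixed in advance. The exact permutation p of 0.1 and the paired sign-flip p of 0.25, each the smallest possible, therefore add no separate support. The ratio shows unequal change and cannot say which of the pair moved.

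Fisher's exact test on the reads of the exudate and stigma library of a population, adjusted by Benjamini-Hochberg over all miRs with a read in either, compares those libraries and not the tissues in general. In Golan it called 1 of 60 miRs higher in exudate (1.67%) and 1 lower, mdm-miR482d (Fisher's exact test, adjusted p = 7.41e-04) and mdm-miR164b (3.32e-06). In SASA it called the same pair in the same directions out of 61 miRs (1.64% each way; exact test, adjusted p = 1.41e-08 and 0.00749). In Manara, the deepest exudate, it called 3 of 94 miRs higher (3.19%) and 4 lower (4.26%). The pair was again among them (exact test, adjusted p = 1.00e-26 and 2.47e-05), and the others were mdm-miR1511, mdm-miR169a and fve-miR1511 on the lower side and fve-miR156a and mdm-miR156a on the higher side. Called in all 3 populations were 2 miRs, mdm-miR482d and mdm-miR164b, and the other 5 were called in 1 population each.

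Across the populations, edgeR's quasi-likelihood test (TMM scaling, its own filter on low counts, Benjamini-Hochberg adjustment) tested 7 miRs and called 3 of them, 1 higher (14.3%) and 2 lower (28.6%) in exudate. The miR higher in exudate was mdm-miR482d, with a log2 fold change of 2.41 (SE 0.84, edgeR adjusted p = 0.0266). This value became 0.65 with RLE scaling (edgeR adjusted p = 0.322) and -0.35 under DESeq2 (adjusted p = 0.565), and it was called in neither. Those lower in exudate were mdm-miR169a (-3.53, SE 1.22, edgeR adjusted p = 0.0266) and fve-miR1511 (-2.92, SE 1.19, edgeR adjusted p = 0.0468). Both entered the test through their stigma shares, so these calls give no separate evidence of a lower share in exudate. The remaining 4 did not pass, with log2 fold changes of -1.97 for mdm-miR1511 (edgeR adjusted p = 0.0829), -1.45 for mdm-miR164b (0.135), -1.12 for mdm-miR482a-3p (0.204) and 0.74 for mdm-miR2118a (0.281), the last of which was negative under RLE scaling and DESeq2. With the population as a block, which fits the pairing of the design, edgeR called 0 of 7 miRs, with 2 at an unadjusted p under 0.05 and adjusted p-values of 0.0715 for mdm-miR482d and 0.0831 for mdm-miR169a. Without Golan, Manara or SASA in turn edgeR called 0 miRs, with 2, 1 and 5 at an unadjusted p under 0.05. The median log2 fold change of the 7 miRs moved from -1.45 with TMM to -3.19 with RLE scaling, -1.58 with library totals and -4.16 with DESeq2, so the size of each change is relative to a scale that the data do not fix.

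The mdm-miR169a entry, of the family that targets NF-YA subunits of the NF-Y transcription factor, had similar shares in the 3 stigmas. It had 87, 120 and 45 stigma reads in Golan, Manara and SASA, which were 5.25%, 6.75% and 5.67%, and a single exudate read, in Golan (2.00%). Its exudate and stigma shares did not overlap, but it passed edgeR's filter through the stigmas alone, as none of its exudate shares reached the 2.06% that the filter corresponds to, so it could only be lower in exudate. The 0 of 176 reads in the Manara exudate stood against 11.9 reads expected at its stigma share.

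Both miR1511 entries had lower mean shares in exudate. The function of this family is less well known than that of the others named here. The mdm-miR1511 entry had 67, 120 and 65 stigma reads (4.04%, 6.75% and 8.19%) and 2, 0 and 1 exudate reads (4.00%, 0% and 3.70%), so that its shares were nearly equal in Golan and far apart in Manara. The fve-miR1511 entry had 45, 81 and 38 stigma reads (2.72%, 4.56% and 4.79%) and 0, 0 and 1 exudate reads, the last of which made 3.70% of the SASA exudate and overlapped the stigma range. That single read gave its only exudate share past the 2.06% of edgeR's filter, against 3 of 3 stigmas, so it was tested through the stigmas. In Manara, 0 of 176 exudate reads was below what the stigma share of either would give (adjusted p = 4.28e-04 and 0.0133, Fisher's exact test).

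Further members of the NBS-LRR list went in both directions. The mdm-miR2118a entry, whose family binds the conserved P-loop region of resistance gene transcripts, was, besides mdm-miR482d, the only miR with a read in all 3 exudates. It had 5, 5 and 3 exudate reads (10%, 2.84% and 11.1%) and 57, 41 and 54 stigma reads (3.44%, 2.31% and 6.80%). Its share was above the stigma of the same population in 3 of 3 cases but the groups overlapped, and its log2 fold change turned sign under RLE scaling. The mdm-miR482a-3p entry had 70, 114 and 75 stigma reads (4.22%, 6.42% and 9.45%) and 2, 4 and 0 exudate reads (4.00%, 2.27% and 0%), all below the stigma range. These counts cannot show a lower share, as the Golan shares were nearly equal and 0 of 27 reads in SASA allows up to 11.1%. In Manara, mdm-miR482a-3p was not called (Fisher's exact test, adjusted p = 0.305). Its other arm, mdm-miR482a-5p, had 14, 13 and 4 stigma reads (0.845%, 0.732% and 0.504%) and 1, 0 and 1 exudate reads (2.00%, 0% and 3.70%), higher in 2 of 3 populations, and ppe-miR482c-3p had 18, 25 and 19 stigma reads and 2, 0 and 0 exudate reads. Summed without mdm-miR482d, the list took 20%, 5.11% and 14.8% of the exudates and 9.596%, 11.1% and 19.3% of the stigmas. The means were 13.3% ± 7.56 and 13.3% ± 5.21 (SD, n = 3; exact permutation p = 1), so the mean difference of the list was that of mdm-miR482d.

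The miRs were also grouped into lists by the known targets of their families. Membership goes by family number, so it does not separate the arms of a precursor. Over all 111 miRs with a read, 34 had a higher and 77 a lower mean share in exudate, with a median difference of -0.0402 percentage points. The 77 include 66 miRs without any exudate read, of which 2 had a stigma share beyond a limit. These counts, and those of the lists below, therefore largely follow from depth. The NBS-LRR list (8 of 21 members with reads, 3 higher and 5 lower, median difference -0.0281) took 46.0%, 54.5% and 74.1% of the exudates and 16.2%, 23.5% and 27.96% of the stigmas, without overlap. Without mdm-miR482d its mean difference was -0.0076 percentage points. The NAC list (4 members, 0 higher and 4 lower, median -0.190) took 16.0%, 17.0% and 0% of the exudates and 55.0%, 35.1% and 28.3% of the stigmas, also without overlap, nearly all of it mdm-miR164b.

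The NF-YA and the GAMYB and TCP lists had lower shares without overlap as well, but for both lists the depth could show this in Manara alone. In SASA 0 of 27 reads allows up to 11.1%, above both stigma shares (5.79% and 8.69%), and the single Golan read of each list has an interval of 0.354% to 10.5%. Most members had no exudate read, so their counts below follow from depth. The NF-YA list (8 of 12 members with reads, all 8 lower) had 1 exudate read, in Golan, against 90, 127 and 46 stigma reads. The GAMYB and TCP list, whose miR159 and miR319 families restrain GAMYB factors of anthers and TCP factors of organ growth in Arabidopsis, also had 1 exudate read, of mdm-miR159a in Golan. It had 56, 81 and 69 stigma reads (3.38%, 4.56% and 8.69%), and 6 of 6 members with reads were lower.

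The other lists overlapped between the tissues. The GRF list, on regulators of growth, took 2.00%, 2.84% and 3.70% of the exudates and 2.72%, 6.36% and 3.40% of the stigmas. Of its 7 members with reads, 3 had a higher and 4 a lower mean share in exudate. Those of the 5′ arm had 2 exudate reads in all, 1 of mdm-miR396c in Manara and 1 of mdm-miR396f in Golan, against 161 stigma reads. Those of the 3′ arm had 5 exudate reads, 4 of them in Manara, and 24 stigma reads. The 3 Manara reads of fve-miR396a-3p gave 1.70% against 0.450% in its stigma, and it had 0 reads in the other exudates. The RNA silencing list, of families that target DCL1 and AGO1, took 4.00%, 3.41% and 3.70% of the exudates and 2.96%, 3.32% and 5.92% of the stigmas. It was led by fve-miR168-3p with 3 exudate and 84 stigma reads and mdm-miR162a with 3 and 27. The fve-miR168-3p entry, named for the 3′ arm, stands on the list by its family number alone. Its seed differs from that of mdm-miR168a, which had 2 exudate and 42 stigma reads. The auxin list had 5 exudate and 31 stigma reads and the MYB list 0 and 2, the latter of ppe-miR858.

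**Figure D2:**
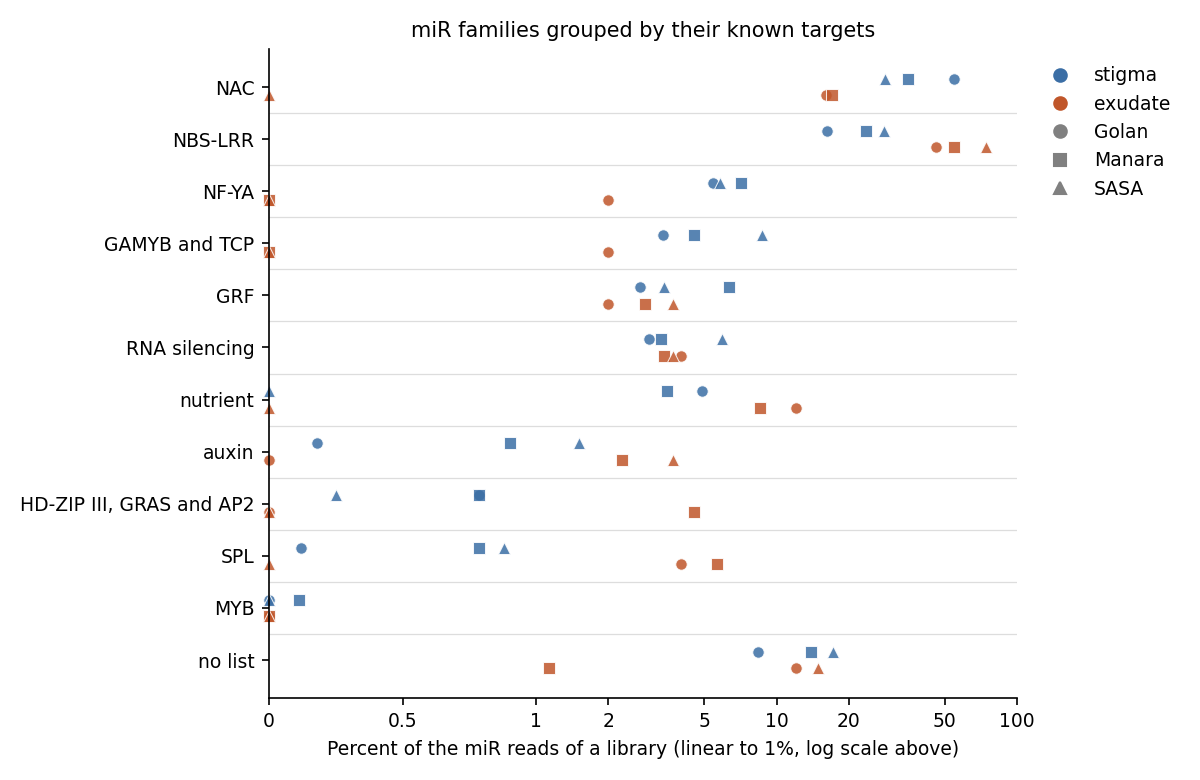
Percent of the miR reads of each library (linear to 1%, log scale above) held by miR families grouped by their known targets, in stigma (blue) and exudate (orange) of Golan (circles), Manara (squares) and SASA (triangles). Without overlap, the NBS-LRR list was higher in exudate and the NAC, NF-YA and GAMYB and TCP lists were lower. Without mdm-miR482d, the mean difference of the NBS-LRR list was -0.0076 percentage points. For the NF-YA and the GAMYB and TCP lists the depth could show a lower share in Manara alone. Nutrient miRs had no read in either SASA library.

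The nutrient list, of families that regulate copper proteins (miR397, miR408) and the uptake of sulfate (miR395) and phosphate (miR399), had reads in Golan and Manara and none in SASA. It had 6 of 50 exudate reads in Golan (12.0%, 5.62 to 23.8), 15 of 176 in Manara (8.52%, 5.23 to 13.6) and 0 of 27 in SASA. The stigmas had 81 of 1657 (4.89%, 3.95 to 6.03), 62 of 1777 (3.49%, 2.73 to 4.45) and 0 of 794, which allows up to 0.378%. SASA thus lacked reads of all 10 members read elsewhere in both tissues, and its stigma lay below the other stigmas beyond counting error. The SASA exudate, where 0 of 27 reads allows up to 11.1%, could not be told from the other exudates. In Golan and Manara the exudate share was the higher one, and in Manara the intervals of the tissues did not overlap. The mdm-miR408b entry had 2 and 5 exudate reads there (4.00% and 2.84%) against 27 and 12 stigma reads (1.63% and 0.675%). The fve-miR397 and mdm-miR397a entries had equal counts in every library, 1 and 4 exudate reads and 23 and 18 stigma reads, and their sequences overlap, so they may be the same reads. The mdm-miR395a entry had 2 and 1 exudate reads and 5 and 1 stigma reads. Among the cultivated genotypes, Hosui also had 0 nutrient reads in both tissues, of 41 exudate and 337 stigma reads, so SASA was not alone in this.

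A few miR entries were seen in exudate alone. Of the 7 with exudate reads and no stigma read, fve-miR156a and mdm-miR156a, of the family that holds back the SPL factors of phase change, had 4 reads each, all in Manara (2.27%). The lower bound of its interval, 0.887%, lay above the 0.169% that 0 reads allow in the Manara stigma. The shorter sequence is contained in the longer one and their counts were equal in every library, so these may be the same 4 reads. Relatives that share a seed with fve-miR156a or mdm-miR156a had Manara stigma reads, 4 of mdm-miR156ab, 3 of mdm-miR156p and 2 of mdm-miR156aa. With them, the miR156 family had 9 reads in each Manara library (5.11% of the exudate and 0.506% of the stigma). Exudate alone thus holds for the entries and not for the family. The 9 exudate reads include both sets of 4, so up to 4 reads may be counted more than once. This also holds for the Manara exudate share of the SPL list given below. The other 5 entries without a stigma read had 1 or 2 exudate reads. These were mdm-miR390a with 1 in Manara and 1 in SASA, fve-miR156g-3p, mdm-miR10983 and ppe-miR395a-3p with 1 in Manara, and mdm-miR156t with 1 in Golan. The SPL list as a whole took 4.00%, 5.68% and 0% of the exudates and 0.121%, 0.788% and 0.882% of the stigmas, higher in Golan and Manara, while 0 of 27 reads in SASA cannot show a direction.

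The list of HD-ZIP III, GRAS and AP2 regulators had exudate reads in Manara alone. Its 8 reads there (4.55%) were 2 each of mdm-miR171c, which targets GRAS factors, and of mdm-miR172a, mdm-miR172d and mdm-miR172m, which target AP2 factors and share a seed, against 14 of 1777 in the stigma (0.788%). The mdm-miR172a sequence is contained in the others of its family and had the same counts as mdm-miR172m in every library, so some of these reads may be counted more than once. The mdm-miR5225a entry had 2 exudate reads and 6 stigma reads, all in Golan.

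The study calls a miR present in a tissue once 1 of its libraries has 2 or more reads. Applied to the P. syriaca libraries alone, whereas the study counted over all its species, this rule gave 20 miRs present in the exudates and 71 in the stigmas. Of these, 18 were common to both. A further 34 were stigma-specific, with no P. syriaca exudate read, and 19 stigma miRs were set aside for a single exudate read. Some of the 34 had reads in a cultivated exudate. In Spadona, mdm-miR159d and mdm-miR396b were 1.65 and 1.06 percentage points higher in exudate than in stigma. A single read made 2.04% of this exudate of 49 miR reads, so these differences cannot show a higher share. Per library, 9 were present in the Golan, 16 in the Manara and 2 in the SASA exudate, against 43, 60 and 31 in the stigmas. Of the 20 exudate miRs, 15 were present in 1 population, 3 in 2 populations and 2 in all 3, whereas 26 of the stigma miRs were present in all 3 populations. Without Manara, 9 exudate miRs were left.

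Most absences from exudate were within what the depth allows. In Golan, 39 of 58 stigma miRs had no exudate read and the stigma share of none exceeded the limit. In Manara, 6 of 63 such miRs exceeded it, mdm-miR1511, mdm-miR169a, fve-miR1511, mdm-miR159d, mdm-miR396b and mdm-miR159a. In SASA, mdm-miR164b was the only 1 of 51. Of the 66 miRs with stigma reads and no exudate read in any population, which together had 400 stigma reads, 2 exceeded a limit, both in Manara, and 0 did so with a limit of 5 reads or by the lower bound of the stigma interval. Neither was called in Manara (Fisher's exact test, adjusted p = 0.424 for each). The mdm-miR159d entry had 23, 37 and 39 stigma reads (1.39%, 2.08% and 4.91%). The mdm-miR396b entry, a regulator of GRF growth factors, had 14, 35 and 10 stigma reads (0.845%, 1.97% and 1.26%). Its near twin mdm-miR396c, which differs at 1 position, had 17, 35 and 7 stigma reads and 1 exudate read in Manara.

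**Figure D3:**
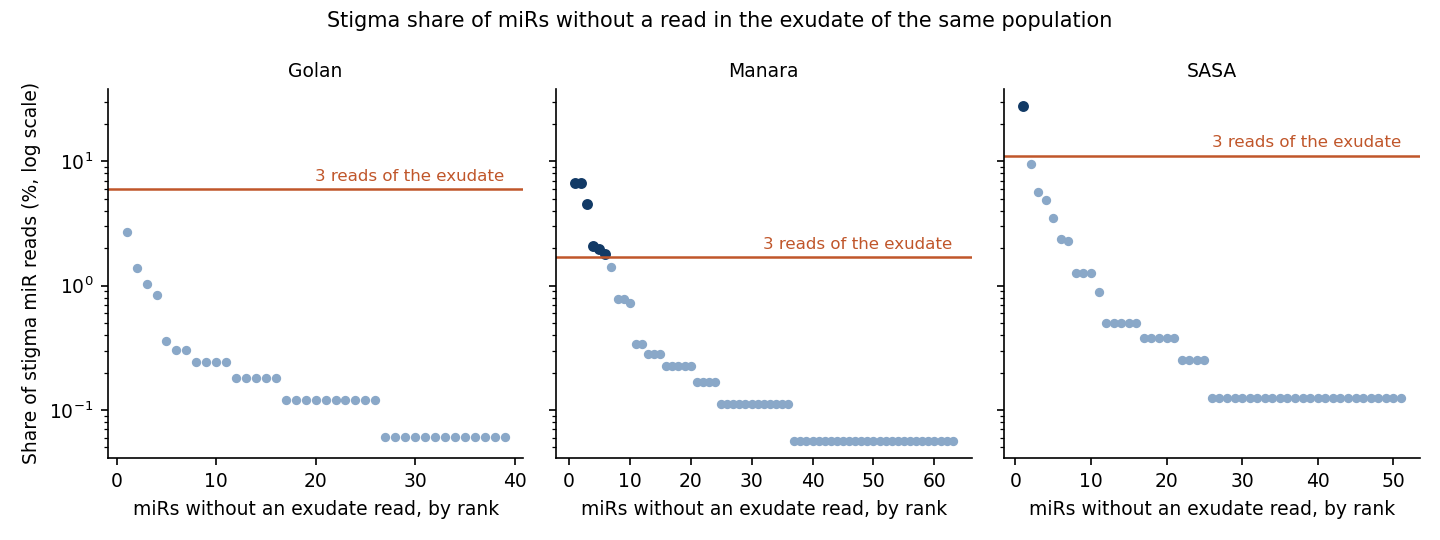
Stigma share (percent, log scale) of each miR without a read in the exudate of the same population, by rank, with the share that 3 exudate reads stand for (orange line). Above the line were 0 miRs in Golan, 6 in Manara (dark points) and 1 in SASA.

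At equal depth, the number of miRs did not separate the tissues in 1 direction. Drawing as many reads from the stigma as the exudate of the same population held, 6.29 miRs with at least 2 reads are expected in Golan, 17.1 in Manara and 5.63 in SASA. The exudates had 9, 16 and 2. The exudate was above the expectation in Golan, close to it in Manara and below it in SASA, where 16 of 27 reads were mdm-miR482d. Counting miRs with at least 1 read, the exudates had 21, 31 and 10 against 14.1, 33.1 and 12.4 expected, in the same directions.

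**Figure D4:**
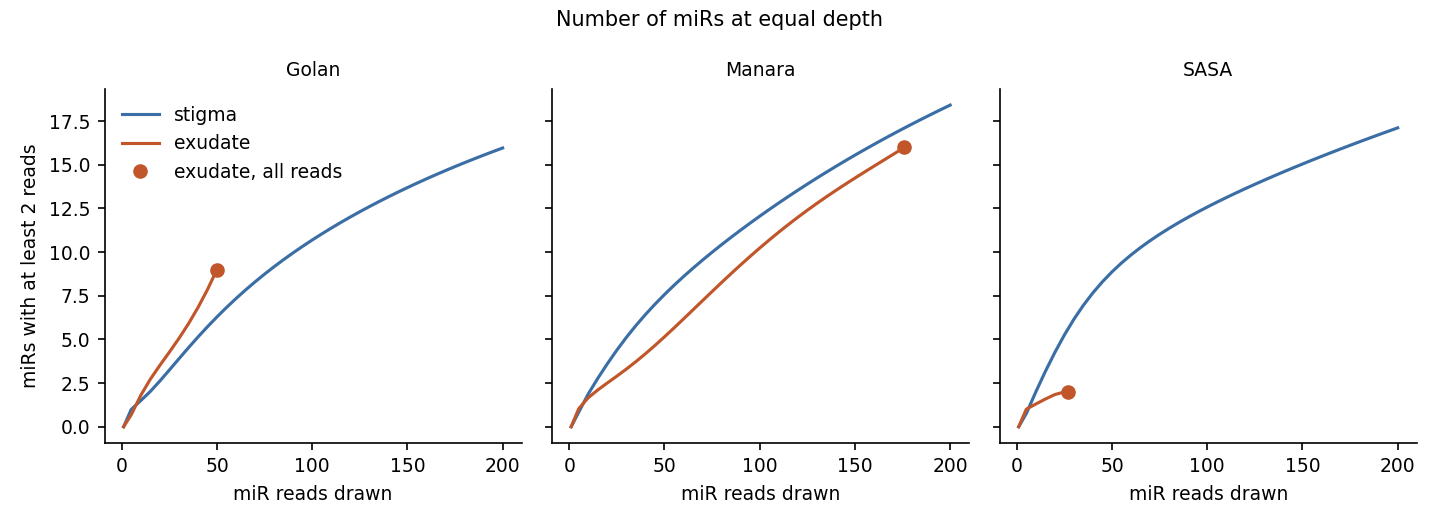
Expected number of miRs with at least 2 reads (vertical axis) when a given number of miR reads is drawn from the stigma (blue) or the exudate (orange) of each population, with the full exudate library as a point. The point lies above the stigma curve in Golan (9 against 6.29), just below it in Manara (16 against 17.1) and below it in SASA (2 against 5.63).

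Profiles were more alike between stigmas than between exudates. The summed overlap of the miR shares of a pair of libraries was 66.4% to 78.4% between stigmas, 41.7% to 56.2% between exudates, and 47.4% (Golan), 42.1% (Manara) and 24.9% (SASA) between the exudate and the stigma of a population. These are descriptions over 111 miRs, and shallow libraries overlap less by counting error alone.

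The base at the 5′ end, which sorts plant miRs between ARGONAUTE proteins in Arabidopsis, was compared over the reference sequences. miRs that start with A took 36.0%, 56.8% and 74.1% of the exudate reads and 16.7%, 26.5% and 24.1% of the stigma reads. miRs that start with U took 44.0%, 33.5% and 7.41% of the exudates and 69.8%, 58.8% and 54.8% of the stigmas. Neither base overlapped between the tissues (exact permutation p = 0.1 and paired sign flips p = 0.25 for each, the smallest possible). Without mdm-miR482d, which starts with A, and mdm-miR164b, which starts with U, the mean share of A was 25.1% in exudate and 25.5% in stigma, and that of U 38.8% and 42.6%, so the base difference was that of these miRs. The lengths overlapped, with 83.4% ± 8.60 of exudate reads and 83.7% ± 5.88 of stigma reads on miRs of 21 bases (SD, n = 3; exact permutation p = 0.9).

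The difference in mdm-miR482d was then set against the cultivated pears. There it already held 58.8% of the stigma reads of Hosui, 64.8% of Shinsui and 28.5% of Spadona, and 41.5%, 64.6% and 38.8% of their exudates. The share difference of exudate and stigma was 19.4, 37.0 and 50.6 percentage points in Golan, Manara and SASA, and -17.3, -0.267 and 10.3 in Hosui, Shinsui and Spadona. The groups did not overlap, with means of 35.7 ± 15.6 and -2.43 ± 13.9 (SD, n = 3; exact permutation p = 0.1, the smallest possible). Differences that did not overlap were found for 2 of 111 miRs in the higher direction (1.80%) and 6 in the lower (5.41%). The interaction of tissue with wild or cultivated in edgeR had a log2 value of 2.57 for mdm-miR482d (SE 0.77, adjusted p = 0.0267 over 4 miRs tested, 1 called higher in wild or 25.0%, and 2.41 with genotype as a block, adjusted p = 0.0361). It was 1.35 under DESeq2 (adjusted p = 0.999), and the call was lost without Manara (1.44, adjusted p = 0.251), SASA (2.13, 0.159), Hosui (4.14, 0.0742), Shinsui (4.07, 0.180) or Spadona (4.19, 0.0626). The exudates of wild and cultivated pears overlapped in mdm-miR482d share, while every wild stigma lay below every cultivated stigma.

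**Figure D5:**
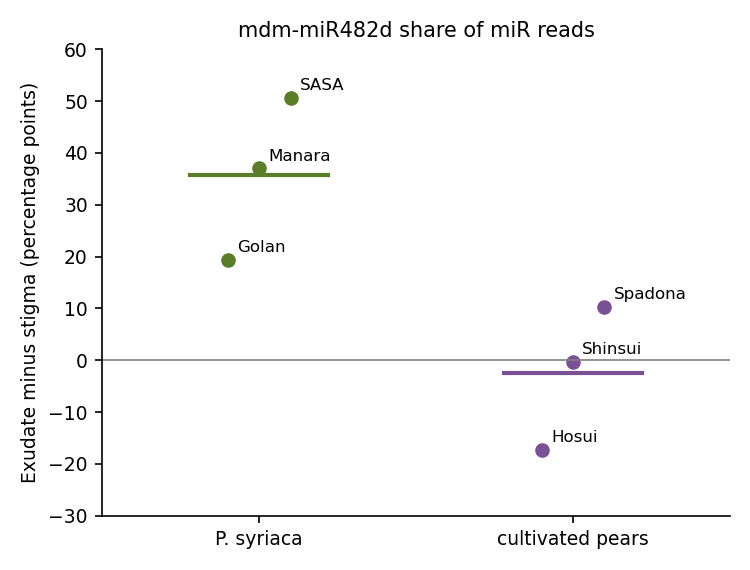
Share of miR reads held by mdm-miR482d, exudate minus stigma (percentage points), for the 3 P. syriaca populations (green) and the 3 cultivated genotypes (purple), with the mean of each as a line. All 3 wild populations lie between 19.4 and 50.6, above the cultivated genotypes at -17.3 to 10.3, and under DESeq2's scaling the wild log2 fold change was -0.35.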

How the data were processed

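Whole read counts per mature miR were deposited by the authors without normalization. Per the study's methods, reads were trimmed with Cutadapt 1.1 to 18 to 28 bases, filtered with FASTX 0.0.14 and assigned by miRExpress 2.0 to miRBase 22 miRs, allowing 7% mismatches, an offset of 11 bases and 50% overlap, and counts of identical sequences were averaged. Near-identical members may therefore share reads. The target and GO tables, which hold predictions and enrichment p-values of the authors, were not used.

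Groups came from the species and tissue labels, and populations were matched to libraries by altitude. Shares were reads over the miR total of a library (27 to 1777 reads), with 95% Wilson intervals and a limit of 3 reads for a count of 0. Whole counts were tested with edgeR 4.0.16 (FDR 0.05) in R 4.3.3, with DESeq2 1.42.0 as the other tool, and shares by exact permutation in scipy 1.17.1 (Python 3.11.15, numpy 2.4.6, pandas 2.3.3). Expected miR numbers at equal depth were hypergeometric. Figures used matplotlib 3.10.9. edgeR was tested on simulated data, where at the depth of these libraries a large part of its calls were false. P-values of edgeR, DESeq2 and the permutation and sign-flip tests rest on the spread between populations or genotypes. Those of Fisher's exact test rest on the reads of a single exudate and a single stigma library and hold no spread between populations. Alternatives were other scalings, filters, presence rules and limits, the population block, families, and each population left out.

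Same-numbered libraries come from the same population by design. The deviations of 28 miRs from the tissue means correlated at 0.357 (Golan), 0.227 (Manara) and 0.437 (SASA) between both libraries of a population, and the Manara exudate correlated more with the Golan stigma (0.330). Named were the 12 most abundant miRs of each tissue, miRs called by edgeR, exudate miRs with at least 2 reads, absences beyond the limit, the most abundant of each list, and miRs read in exudate alone. The members and lists were chosen with earlier results of these data known.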

Additional observations from a re-analysis of the deposited data

Results flagged for a closer look

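The exudate against stigma difference of mdm-miR482d was larger in P. syriaca than in the cultivated pears by the edgeR interaction test, with a log2 value of 2.57 (SE 0.77, edgeR adjusted p = 0.0267), and it is listed here because the same contrast differed between the wild and cultivated groups. The share was higher in exudate in 3 of 3 wild populations and in 1 of 3 cultivated genotypes. The wild stigmas were at 6.58% to 12.4% and the cultivated stigmas at 28.5% to 64.8%. Species and site cannot be told apart from wild or cultivated in this design. Altitude was 430 m for the cultivated genotypes and 450 m (Manara), 830 m (SASA) and 900 m (Golan) for the wild populations, and its part was not tested.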

How the results depend on the processing

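The call of mdm-miR482d as higher in exudate was lost with RLE scaling, without a filter and under DESeq2, where 0 miRs were called higher. The number of miRs called by edgeR between the tissues (3 of 7) moved to 5 with RLE scaling, 7 of 111 without a filter and 12 under DESeq2. It was 0 with at least 10 reads (5 of 28 at an unadjusted p under 0.05 in edgeR), with the population as a replicate block (0 also with at least 10 reads), for families (4 of 9 unadjusted), and without any 1 population (0 to 0), and it was 1 for library totals with the block or with at least 10 reads, which were chosen after seeing the data. The log2 fold change of mdm-miR482d was 0.65 with RLE scaling (edgeR adjusted p = 0.322), 0.28 without a filter (0.765), 1.66 with at least 10 reads (0.263) and -0.35 under DESeq2. That of mdm-miR2118a was -0.89 (RLE), -0.070 (at least 10 reads), -1.15 (no filter), -1.98 (DESeq2) and from -0.10 to 0.77 with 1 population left out. The cause was not tested. The interaction call went from 1 to 0 with at least 10 reads, under DESeq2 and with any genotype but Golan left out (0 to 1). Presence moved with its rule. Exudate miRs numbered 45 at 1 read, 10 at 3 reads, 5 in at least 2 populations and 9 to 20 with 1 population left out. Stigma miRs numbered 37 in at least 2 populations and 36 as families. Common miRs numbered 38, 8 and 5 at the first 3 of these rules and 9 to 18 with 1 population left out. Stigma-specific miRs numbered 66 at 1 read, 14 in at least 2 populations and 16 as families. Absences beyond the limit fell from 7 to 4 with a limit of 5 reads or the lower Wilson bound (losing mdm-miR159d, mdm-miR159a and mdm-miR396b), and to 1 without Manara. The excess over equal depth at 1 read was 6.90 (Golan), -2.07 (Manara) and -2.37 (SASA).

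Direction turned where differences were small. Without mdm-miR482d and mdm-miR164b in the totals the RNA silencing list was 0.948 percentage points higher in exudate, miRs starting with A -0.394 and those of 20 bases 0.549, and with TMM-scaled totals RNA silencing was 0.1004 and ppe-miR482c-3p 0.0236. With 1 population left out in turn, the difference ranged from -0.093 to 0.170 for fve-miR393a, -0.403 to 0.476 for fve-miR396a-3p, -0.123 to 0.452 for mdm-miR171c, -0.093 to 0.482 for mdm-miR172d, -0.093 to 0.113 for mdm-miR535a and -1.90 to 0.753 for ppe-miR482c-3p. It ranged from -0.518 to 1.75 for the HD-ZIP III, GRAS and AP2 list, -0.0563 to 0 for MYB, -1.06 to 0.566 for RNA silencing and -7.60 to 0.586 for miRs on no list, and from -0.984 to 0.883, -4.57 to 6.63 and -5.95 to 4.08 for lengths of 20, 21 and 22 bases. The shares of mdm-miR482d and mdm-miR164b and the NBS-LRR, NAC, NF-YA and GAMYB and TCP lists kept their direction under each denominator run for them and with each population left out. For the miRs mdm-miR482d and mdm-miR164b these were TMM-scaled totals and 1 entry per set of equal counts. DESeq2's scaling gave mdm-miR482d a log2 fold change of -0.35, and RLE scaling in edgeR gave it 0.65. Without mdm-miR482d, the NBS-LRR list differed by -0.0076 percentage points of the full totals.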
